A study of Mus musculus with 24 samples.

Results

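The genes around *Ptk6* at the distal end of mouse chromosome 2 were followed in RNA sequencing of the distal jejunum. They were the genes of the deposited table on chromosome 2 with a start at position 178000000 or beyond (GRCm39) for which 3 or more of the 24 libraries held 10 or more counts. *Ptk6* itself, its neighbour *Srms*, *Gata5*, ribosomal protein genes and collagen genes were set aside. Of 91 genes of the region with a count, 71 had enough counts, 6 of these were set aside by name (*Ptk6*, *Srms*, *Gata5*, *Rps21*, *Col9a3* and *Col20a1*), and 65 neighbours remained, out of 21694 genes with enough counts in the series. Of the 65, 52 had a protein-coding transcript, 37 lay before *Ptk6* (at lower coordinates) and 28 after it. *Ptk6* lies on the minus strand at chr2:180835514-180844582. The first neighbour, *Ppp1r3d*, started at 178052999 and the last, *Polr3k*, ended at 181512623. The nearest gene outside the position limit, *Phactr3*, started at 177760768, and its log2 fold change between genotypes was -0.32, against -0.23 for *Ppp1r3d*. At the count limit, *Chrna4*, *Fndc11* and the transcript Gm29797 had 10 counts in 5 libraries, while the best genes left out for low counts reached that in 1 library.

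The study compared male and female wild type mice with *Ptk6*−/− mice that drank regular water (controls) or 100 mM succinate for 7 days, with 3 mice and 3 libraries in each of the 8 groups, 12 mice of each genotype. *Ptk6*−/− is a germline knockout that was backcrossed for more than 20 generations to C57BL/6. All mice came from the same breeding colony but from different litters, and experiments ended at 9 to 11 weeks of age. Whole tissue was used, so that fewer cells of a type and less RNA per cell could not be told apart. Succinate is a metabolite that tuft cells, the chemosensory cells of the gut epithelium, sense through a receptor and that starts type 2 immunity in the small intestine.

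When a gene is disrupted in embryonic stem cells of one mouse strain and the mice are then bred to another, a segment of the first strain's chromosome stays linked to the disrupted gene, and each further generation of backcrossing shortens it on average. Sequence differences in such a segment, or the disrupting insertion itself, can alter the expression of genes nearby without any action of the missing protein. PTK6 is an intracellular tyrosine kinase of epithelial cells, and its neighbours on this chromosome end encode unrelated proteins, among them a proteasome subunit, an RNA polymerase III subunit, regulators of vesicle traffic and a neuronal receptor subunit. The question here was whether these neighbours differed between genotypes more often than other genes did. The strain of the targeted stem cells was not given in the sources used here, no genotype calls around the locus were analysed, and carry-over of flanking DNA was not tested apart from expression.

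The promoters of the neighbours that passed a test in one group of mice, and of the neighbour closest to *Ptk6*, are shown first because several neighbours share their promoters with a gene on the other strand. Each window runs from 250 bases before to 50 bases after a RefSeq transcript start in GRCm38.p6, a different build from that of the gene positions above, and is written 5′ to 3′ on the strand of its gene. Capitals mark the GC box, GGGCGG on either strand, the letters of the motif that Sp1-type factors bind. *Psma7*, a subunit of the 20S proteasome, and *Ss18l1*, a subunit of a neuronal chromatin remodeling complex, start 99 bases apart on opposite strands by the gene positions of the deposited annotation, and their RefSeq windows, at chr2:180042415-180042714 (minus strand) and chr2:180042233-180042532 (plus strand), share 118 bases.

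*Psma7*: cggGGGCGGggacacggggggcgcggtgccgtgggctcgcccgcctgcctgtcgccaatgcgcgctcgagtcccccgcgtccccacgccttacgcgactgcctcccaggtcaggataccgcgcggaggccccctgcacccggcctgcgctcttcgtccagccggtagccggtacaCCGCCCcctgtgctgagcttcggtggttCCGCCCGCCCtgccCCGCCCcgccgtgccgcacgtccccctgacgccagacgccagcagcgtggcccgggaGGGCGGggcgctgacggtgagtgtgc

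*Ss18l1*: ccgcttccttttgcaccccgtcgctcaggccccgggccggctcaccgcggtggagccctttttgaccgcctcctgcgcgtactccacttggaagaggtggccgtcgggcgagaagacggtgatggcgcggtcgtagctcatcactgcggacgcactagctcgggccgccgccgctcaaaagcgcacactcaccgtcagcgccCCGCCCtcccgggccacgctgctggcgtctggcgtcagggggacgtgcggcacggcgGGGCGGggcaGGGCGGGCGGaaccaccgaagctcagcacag

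*Dido1*, which encodes a chromatin-binding protein, and *Gid8*, a subunit of the CTLH ubiquitin ligase complex, start 118 bases apart on opposite strands by the same positions. Their RefSeq windows, at chr2:180709950-180710249 (minus strand) and chr2:180709976-180710275 (plus strand), share 274 bases, so that they are nearly the same DNA read from both sides. Both genes have 3 RefSeq windows each, and the pair that overlaps most was chosen.

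*Dido1*: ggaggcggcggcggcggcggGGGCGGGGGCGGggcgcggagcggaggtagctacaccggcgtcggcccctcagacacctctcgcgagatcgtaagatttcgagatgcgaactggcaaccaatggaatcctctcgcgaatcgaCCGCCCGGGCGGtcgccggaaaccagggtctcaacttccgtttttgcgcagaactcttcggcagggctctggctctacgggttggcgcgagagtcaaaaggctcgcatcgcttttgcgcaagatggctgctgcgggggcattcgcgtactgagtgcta

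*Gid8*: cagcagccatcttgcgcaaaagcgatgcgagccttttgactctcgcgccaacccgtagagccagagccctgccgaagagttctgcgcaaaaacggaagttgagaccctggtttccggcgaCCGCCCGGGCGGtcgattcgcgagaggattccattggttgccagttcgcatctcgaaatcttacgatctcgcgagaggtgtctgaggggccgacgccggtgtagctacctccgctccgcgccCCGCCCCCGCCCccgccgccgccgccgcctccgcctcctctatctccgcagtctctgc

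*Tpd52l2*, a member of the tumor protein D52 family linked to vesicle traffic, has its window at chr2:181496892-181497191 (plus strand). *Ppdpf*, the neighbour with the smallest distance to *Ptk6*, has 2 windows, of which the one farther along its strand, at chr2:181186997-181187296 (plus strand), is shown.

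*Tpd52l2*: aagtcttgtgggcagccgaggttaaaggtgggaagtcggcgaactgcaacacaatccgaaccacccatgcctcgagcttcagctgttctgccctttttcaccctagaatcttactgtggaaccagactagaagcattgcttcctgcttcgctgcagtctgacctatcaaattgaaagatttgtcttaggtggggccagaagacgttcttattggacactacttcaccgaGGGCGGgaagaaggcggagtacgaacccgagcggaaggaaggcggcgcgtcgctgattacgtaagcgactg

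*Ppdpf*: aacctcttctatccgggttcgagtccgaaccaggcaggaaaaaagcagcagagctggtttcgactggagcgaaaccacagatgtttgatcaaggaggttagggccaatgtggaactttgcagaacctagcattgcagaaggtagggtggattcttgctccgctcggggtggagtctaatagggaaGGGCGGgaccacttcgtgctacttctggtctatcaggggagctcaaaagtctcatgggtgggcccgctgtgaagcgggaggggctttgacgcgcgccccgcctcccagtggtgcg

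The *Psma7* window held 6 GC boxes, counting overlapping ones, the *Ss18l1*, *Dido1* and *Gid8* windows 4 each, and the *Tpd52l2* and *Ppdpf* windows 1 each. Promoters were matched for 44 of the 65 neighbours, with 61 windows in all. A GC box stood in 36 of the 61 windows (59.0%), against 35.9% of all 32544 mouse windows of the same length. The letters TATAAA, searched on both strands, were in 3.28% of the neighbours' windows and in 13.6% of all. CCAAT was in 42.6% against 37.4%, and CCGGAAG in 14.8% against 8.91%. These shares describe the letters in the windows and were not tested.

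Total counts ranged from 8080321 to 52824743 per library (median 43017686.5). Before any comparison, 3 libraries stood apart. In replicate 1 of the male wild type controls, 51.2% of the counts fell on *Rn18s-rs5*, a gene for 18S ribosomal RNA, and in replicate 1 of the male *Ptk6*−/− succinate group, the library with the fewest counts, 29.7% did. In replicate 2 of the female wild type succinate group, 8 markers of cardiac muscle summed to 18155 CPM (counts scaled to 1000000 per library after TMM normalization), against 15.7 to 234 CPM in the other 23 libraries. Enterocyte markers summed to 5688 to 31331 CPM. The list was not made to tell one segment of the small intestine from another, so it did not test the label of distal jejunum.

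The targeted gene was checked next. *Ptk6* was at 9.21 to 48.8 CPM (median 26.9) in the 12 wild type libraries and at 0.31 to 1.92 CPM (median 0.67) in the 12 *Ptk6*−/− libraries, so the genotypes did not overlap in any group. Its log2 fold change over all mice was -5.17 ± 0.27 (SE; adjusted p = 2.08e-10, edgeR's quasi-likelihood test). Within groups of 3 against 3 it was -5.04 in control males (adjusted p = 0.000518), -5.64 in control females (adjusted p = 0.00632), -5.25 in succinate-treated males (adjusted p = 0.141) and -4.65 in succinate-treated females (adjusted p = 0.779). In both succinate comparisons the targeted gene itself missed the threshold after adjustment over all genes. Without single libraries it passed in 6 of 6 fits in control males and in 3 of 6 in control females (adjusted p up to 0.0844, edgeR). This limits what a count of 0 means under succinate and in control females.

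Over all 24 mice, as the mean of the 4 differences between *Ptk6*−/− and wild type, none of the 65 neighbours passed (adjusted p under 0.05, edgeR's quasi-likelihood test), where 0.0277% of the 21694 genes passed. At an unadjusted p under 0.05 there were 12 of 65 neighbours (18.5%) and 13.4% of all genes. DESeq2 called 1 neighbour, *Stmn3*, against 0.658% of all genes, and voom with sample quality weights called 28, against 38.6%. The neighbours' median log2 fold change was -0.04, against -0.03 for all genes, with 31 above 0 and 34 below. Their median size of change, without regard to sign, was 0.25 for the neighbours and 0.25 for all genes. The 95% interval of the difference stayed within a 2-fold change in either direction for 46 of the 65. This held for 35 of the 38 neighbours with a mean FPKM of 1 or more (the authors' measure of level per exon length), and for 11 of the 27 below that level.

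**Figure D1:**
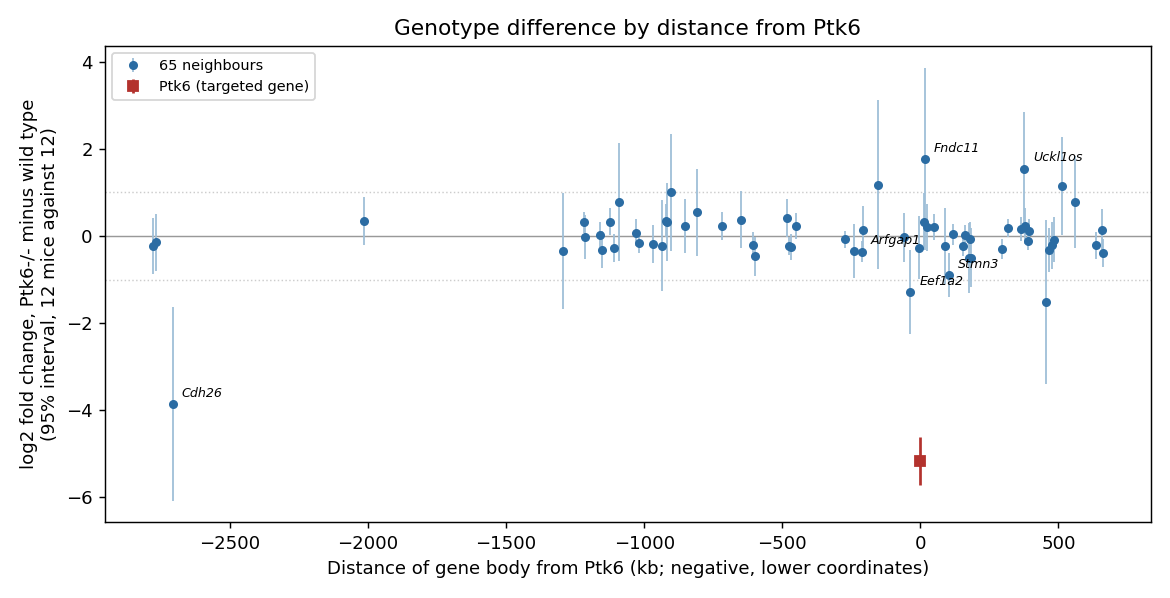
Log2 fold change of each of the 65 neighbours (*Ptk6*−/− minus wild type, mean of the 4 group differences, 12 mice against 12) with its 95% interval, against the distance in kb of its gene body from *Ptk6*; the red square is *Ptk6* and dotted lines mark a 2-fold change. The neighbours lie around 0 at every distance, and no neighbour comes near the -5.17 of *Ptk6* except *Cdh26*, which had at most 20 counts in any library.

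The neighbours were then taken by distance, where 13.4% of all genes were under 0.05 before adjustment over all mice. Of 8 neighbours within 100 kb of *Ptk6*, 0 passed and 1 was under 0.05 before adjustment, and the median log2 fold change was 0.08. From 100 to 500 kb there were 27 neighbours with 5 such p-values and a median of -0.08. From 500 kb to 1 Mb there were 16 with 3 and a median of 0.23, and beyond 1 Mb 14 with 3 and a median of -0.09. None of the neighbours in these bands passed. The 37 before *Ptk6* and the 28 after it had medians of -0.04 and -0.03.

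Nearest to *Ptk6* among the 65 neighbours, at 5.0 kb, lies *Ppdpf* (*Srms*, which was set aside, lies closer), known as a pancreatic progenitor differentiation and proliferation factor and, at a mean FPKM of 35.9, the neighbour with the highest level per length. In the male controls its wild type libraries, at 41.6 to 47.6 CPM, did not overlap with its *Ptk6*−/− libraries, at 28.6 to 38.5 CPM. The log2 fold change there was -0.44 (adjusted p = 0.106, edgeR), and DESeq2 called it, as it did 15.5% of all genes. In the female controls they were at 53.2, 109 and 83.2 CPM in wild type and at 27.1, 25.9 and 202 CPM in *Ptk6*−/−, so that 1 of the 3 knockout libraries, replicate 3, lay above all others. Over all mice the log2 fold change of *Ppdpf* was -0.27 (95% interval -0.99 to 0.45), which did not pass. Without that library it was -0.68 (adjusted p = 0.178, edgeR), and without single other libraries it was -0.53 to -0.16.

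*Eef1a2*, the form of translation elongation factor 1 alpha used in muscle and neurons, lies 36.7 kb before *Ptk6*. Its level was 7.36 and 8.99 CPM in replicates 3 and 1 of the female wild type succinate group and 302 CPM in replicate 2, the library with the cardiac markers. The second highest level, 25.0 CPM, was in replicate 1 of the male *Ptk6*−/− succinate group, which had the second highest cardiac sum, 234 CPM. The log2 fold change over all mice was -1.29 (95% interval -2.26 to -0.32, unadjusted p = 0.0114, adjusted p = 0.313 by edgeR). Without the library that had the cardiac markers it was -0.36 (adjusted p = 0.580 by edgeR). Among the other 23 libraries *Eef1a2* was at 3.08 to 16.5 CPM in wild type and 3.08 to 25.0 CPM in *Ptk6*−/−. In the female *Ptk6*−/− succinate group it was at 4.24, 3.25 and 4.05 CPM, below the wild type libraries of that group with and without the cardiac markers.

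**Figure D2:**
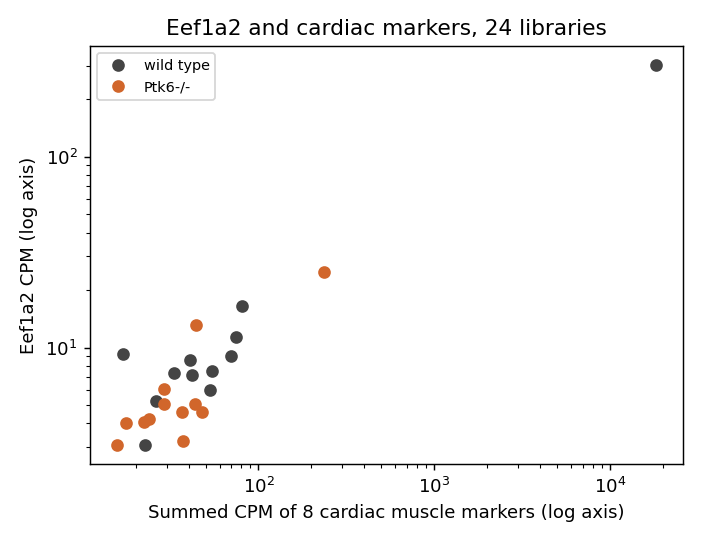
*Eef1a2* in CPM against the summed CPM of 8 cardiac muscle markers in the 24 libraries, both on log axes, with wild type in black and *Ptk6*−/− in orange. One wild type library, at 18155 CPM of markers and 302 CPM of *Eef1a2*, lies far from the other 23.

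*Helz2*, a helicase-like coactivator of nuclear receptors that interferon induces, begins 24.8 kb after *Ptk6*. Among the male controls it was at 62.9 to 79.9 CPM in wild type and 82.8 to 119 CPM in *Ptk6*−/−, without overlap. There its log2 fold change was 0.50 (adjusted p = 0.108, edgeR), and DESeq2 called it, as it did 15.5% of all genes. Without replicate 1 of *Ptk6*−/− it passed in edgeR, as did 4.82% of all genes. In control females its libraries overlapped, with a log2 fold change of 0.77 (unadjusted p = 0.0368, adjusted p = 0.421, edgeR). In succinate-treated males they overlapped too, at 0.27. In the female succinate groups the knockout libraries were at 11.1 to 45.7 CPM and overlapped with the wild type libraries at 25.6 to 72.1 CPM, with a log2 fold change of -0.72. Over all mice its log2 fold change was 0.20 (95% interval -0.34 to 0.74), and it ranged from 0.07 without replicate 3 of the female *Ptk6*−/− succinate group to 0.37 without replicate 1 of the male wild type succinate group. *Gmeb2*, a factor that binds glucocorticoid modulatory elements, lies 48.7 kb after *Ptk6*, and its log2 fold change was 0.21 (95% interval -0.09 to 0.50). In each of the 4 group comparisons the *Gmeb2* fold change was above 0, between 0.09 and 0.34, and it passed in none.

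*Fndc11*, 17.2 kb after *Ptk6*, was near the limit of detection. It had 0 counts in 7 of the 12 wild type and 5 of the 12 *Ptk6*−/− libraries and at most 34 in any. Counts of 3 or less were taken as the floor, and no fold change is given for it. Gm14398 and Gm7645, also within 100 kb of *Ptk6*, did not pass with edgeR or DESeq2 in any comparison.

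**Figure D3:**
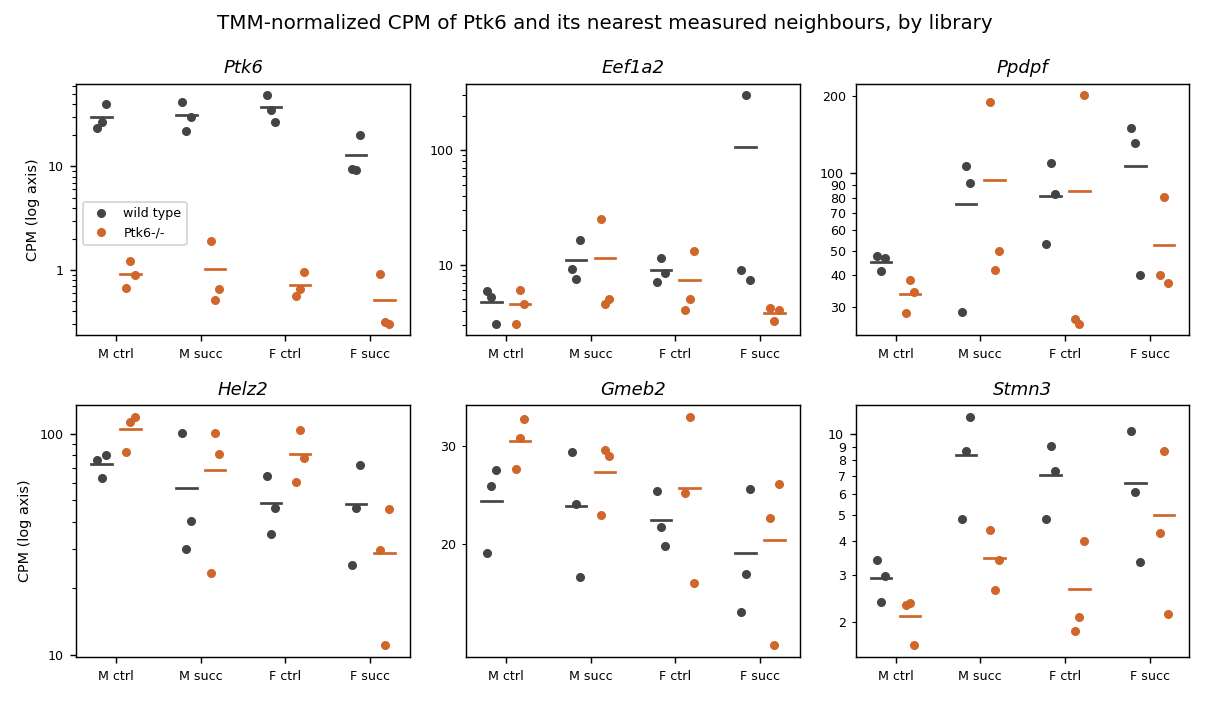
CPM after TMM normalization in each library (points; log axis) with the group mean (line) for *Ptk6* and 5 of its neighbours, for males (M) and females (F) as controls (ctrl) or under succinate (succ), wild type in black and *Ptk6*−/− in orange, 3 libraries per group. *Ptk6* separates the genotypes in all 4 pairs of groups, *Stmn3* in 3 of 4, and *Eef1a2*, *Ppdpf*, *Helz2* and *Gmeb2* overlap in 3 of 4.

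*Stmn3*, at chr2:180948252-180956293 (minus strand), 103.7 kb after *Ptk6*, had the smallest p of all neighbours over all mice. It encodes stathmin 3, a regulator of microtubules in neurons, and it was singled out after its values were seen. In the male controls it was at 3.40, 2.38 and 2.98 CPM in wild type and at 2.31, 2.35 and 1.63 CPM in *Ptk6*−/−, with a gap of 0.03 CPM between the groups. Under succinate the male wild type libraries were at 4.83, 8.70 and 11.6 CPM and the *Ptk6*−/− libraries at 4.39, 2.62 and 3.41 CPM. The female controls were at 4.84, 9.05 and 7.28 CPM in wild type and at 1.84, 2.08 and 4.01 CPM in *Ptk6*−/−. In these 3 pairs of groups every knockout library was below every wild type library. The succinate-treated females overlapped, at 10.3, 6.10 and 3.35 CPM in wild type and 4.28, 8.64 and 2.14 CPM in *Ptk6*−/−.

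The log2 fold change of *Stmn3* over all mice was -0.90 ± 0.24 (SE; 95% interval -1.39 to -0.40, unadjusted p = 0.00125, adjusted p = 0.258 by edgeR), and by group it was -0.48 in control males, -1.27 in succinate-treated males, -1.39 in control females and -0.40 in succinate-treated females. It did not pass in edgeR and passed in DESeq2 (adjusted p = 0.0441) and without replicate 1 of the male wild type succinate group (adjusted p = 0.0438, edgeR), where 1.74% of all genes passed. It was the only neighbour whose libraries did not overlap in the same direction in at least 3 of the 4 pairs of groups, where 0.41% of all 21694 genes met this. The 10 markers of enteric neurons, a cell type that expresses stathmins, summed to 66.3 to 163 CPM in wild type (median 96.8) and 66.2 to 123 CPM in *Ptk6*−/− (median 79.3), and 0 of the 10 passed. In the female controls, this sum was 103 to 130 CPM in wild type and 66.3 to 89.7 CPM in *Ptk6*−/−, without overlap and in the same direction as *Stmn3*. It overlapped in control males, at 66.3 to 78.2 CPM in wild type and 66.8 to 79.1 CPM in *Ptk6*−/−, and in succinate-treated males, at 66.9 to 163 CPM and 79.5 to 123 CPM. Its part in the *Stmn3* difference was not tested.

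In the control males, where 4.23% of 19218 genes passed, 3 of 59 neighbours did: *Psma7* and *Tpd52l2* fell and *Dido1* rose in *Ptk6*−/−. Of all genes, 2.36% passed as higher and 1.87% as lower. None of the 3 changed 2-fold, a size at which 0.739% of all genes passed. *Psma7* lies 1151 kb and *Dido1* 484 kb before *Ptk6*, and *Tpd52l2* lies 294 kb after it, with neighbours in between that did not pass. Whether these genes passed depended on single libraries, as it did for all genes: without replicate 2 or 3 of either genotype 0 neighbours and 2 to 6 of all genes passed, while without replicate 1 of wild type 3 neighbours and 914 of all genes did, and without replicate 1 of *Ptk6*−/− 4 and 906. The fold changes moved little when single libraries were left out, with log2 values of -0.69 to -0.57 for *Psma7*, -0.56 to -0.48 for *Tpd52l2* and 0.54 to 0.68 for *Dido1*. They moved more over 13 other settings, among them limma on FPKM. There they were -0.64 to -0.19 for *Psma7*, -0.62 to -0.08 for *Tpd52l2* and 0.29 to 1.00 for *Dido1*. Of the 10 lists of cell type markers, 2 did not overlap between the genotypes of control males. The 5 T cell markers summed to 155 to 174 CPM in wild type and 97.3 to 125 CPM in *Ptk6*−/−, and 1 of the 5, *Gzma*, was lower. The 5 markers of endothelium summed to 68.2 to 89.4 CPM and 91.5 to 106 CPM, and 0 of the 5 passed. The 6 Paneth cell markers summed to 14110 to 16666 CPM and 5112 to 14222 CPM, with overlap, and 1 of the 6, the defensin *Defa30*, was lower (log2 fold change -1.15, adjusted p = 0.0375, edgeR). Of the 7 goblet cell markers, the mucin *Muc2* was higher (1.31, adjusted p = 0.0378, edgeR) and *Spink4* lower (-0.83, adjusted p = 0.0423, edgeR), and the sums overlapped. The part of these cells in the neighbours' differences was not tested.

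*Psma7*, at chr2:179678167-179684203 (minus strand), was at 109, 114 and 122 CPM in the wild type and at 67.4, 76.2 and 80.3 CPM in the *Ptk6*−/− males, without overlap. Its log2 fold change was -0.64 ± 0.11 (SE; adjusted p = 0.0311, edgeR). In the other pairs of groups it overlapped, with log2 fold changes of 0.21 in succinate-treated males, -0.72 in control females and -0.07 in succinate-treated females. *Tpd52l2*, at chr2:181138935-181159755 (plus strand), was at 30.6, 34.3 and 33.1 CPM in these wild type males and at 23.8, 22.5 and 22.5 CPM in these *Ptk6*−/− males, again without overlap. Its log2 fold change was -0.53 ± 0.11 (SE; adjusted p = 0.0396, edgeR). The female controls did not overlap either, at 32.4 to 43.7 CPM against 22.7 to 29.4 CPM, with a log2 fold change of -0.48 that did not pass. Under succinate its libraries overlapped, with log2 fold changes of -0.18 in males and 0.04 in females.

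*Dido1* was at 43.4, 37.4 and 43.0 CPM in the wild type and at 63.6, 62.5 and 63.9 CPM in the *Ptk6*−/− males, and here the groups were far apart relative to their spread. Its log2 fold change was 0.60 ± 0.12 (SE; adjusted p = 0.0375, edgeR). In the control females the *Ptk6*−/− libraries were at 52.7, 58.8 and 16.4 CPM, on both sides of the wild type libraries at 36.3, 23.1 and 28.7 CPM. Over all mice the log2 fold changes were -0.32 for *Psma7*, -0.30 for *Tpd52l2* and 0.41 for *Dido1*, and none passed.

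The partners across the shared promoters of the genes that passed were compared next. In control males *Ss18l1* had a log2 fold change of 0.51, against -0.64 for *Psma7*, and *Gid8* had -0.19, against 0.60 for *Dido1*. Neither partner passed in edgeR. The signs were the same in succinate-treated males for *Psma7* and *Ss18l1* (0.21 and 0.34), though *Psma7* was at -0.57 without replicate 1 of *Ptk6*−/−, the library with the fewest counts, and in succinate-treated females for *Dido1* and *Gid8* (0.38 and 0.16). Over all mice the values were 0.32 for *Ss18l1* against -0.32 for *Psma7*, and -0.23 for *Gid8* against 0.41 for *Dido1*. Of the 7 pairs of neighbours on opposite strands that start within 1000 bases of each other, the remaining 5 are *Ppp1r3d* with *Fam217b*, *Taf4* with 4921531C22Rik, *Arfrp1* with *Zgpat*, *Zfp512b* with *Prpf6*, and ENSMUSG00000121225 with *Polr3k*, and no gene of these passed in the genotype comparisons as tested with edgeR. *Taf4*, a subunit of the general transcription factor TFIID, came closest, with 0.57 in control males (adjusted p = 0.0633, edgeR), and DESeq2 called it and *Zfp512b* there, where it called 15.5% of all genes.

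**Figure D4:**
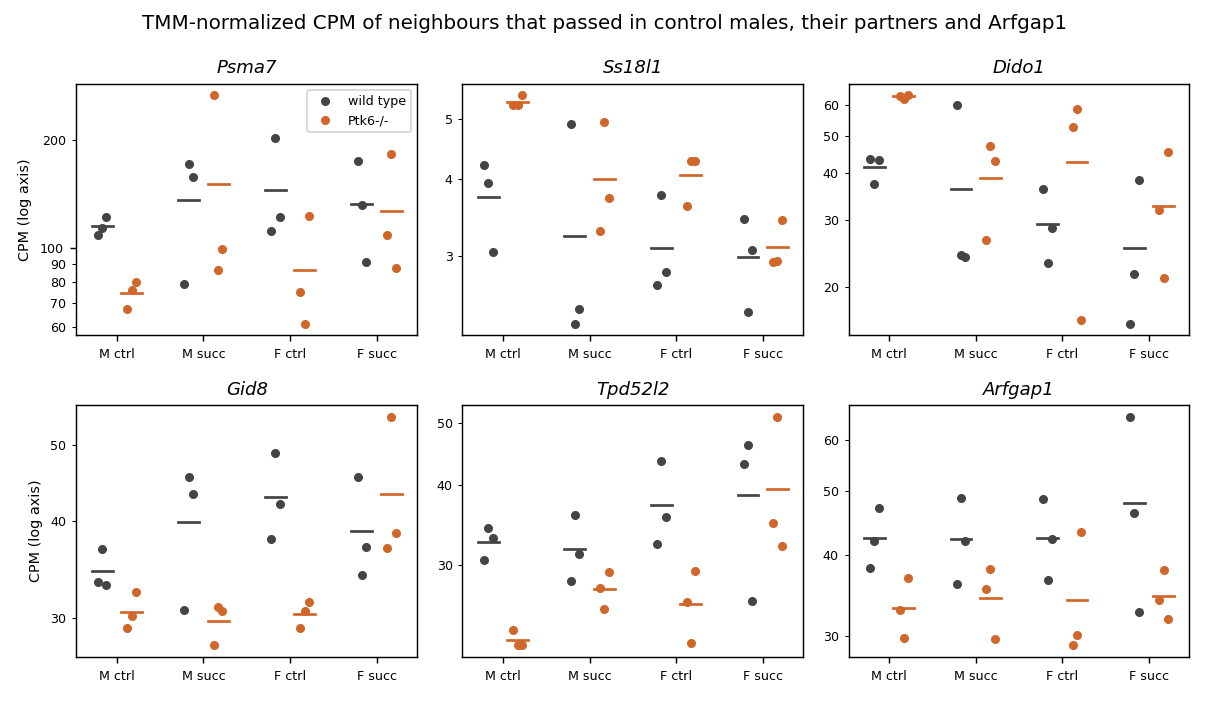
CPM after TMM normalization in each library (points; log axis) with the group mean (line) for *Psma7*, *Dido1* and *Tpd52l2*, which passed in control males (M ctrl), their promoter partners *Ss18l1* and *Gid8*, and *Arfgap1*, wild type in black and *Ptk6*−/− in orange, 3 libraries per group. In control males the genotypes do not overlap in any of the 6 genes, whereas in succinate-treated females (F succ) they overlap in all 6.

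The control male libraries also differed by genotype in how counts depended on gene length. The slope of log2 counts on log2 gene length was 0.705 to 0.762 in wild type and 0.856 to 0.910 in *Ptk6*−/−, without overlap. In control females it was 0.689 to 0.762 in wild type and 0.842, 0.885 and 0.676 in replicates 1, 2 and 3 of *Ptk6*−/−. Under succinate the genotypes overlapped in both sexes. Among the neighbours in control males, the 29 longer genes had a median log2 fold change of 0.20 (19 above 0 and 10 below). The 30 shorter ones had -0.06 (14 above and 16 below). With an offset for each library's length trend both medians were 0.09, and 0 neighbours and 0.375% of all genes passed. The adjusted p-values (edgeR with the offset) were then 0.0574 for *Psma7*, 0.0552 for *Tpd52l2* and 0.272 for *Dido1*, whose log2 fold change went from 0.60 to 0.29, while that of *Psma7* was -0.63 and that of *Tpd52l2* -0.62. That of *Stmn3*, among the shorter genes, went from -0.48 to -0.26.

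**Figure D5:**
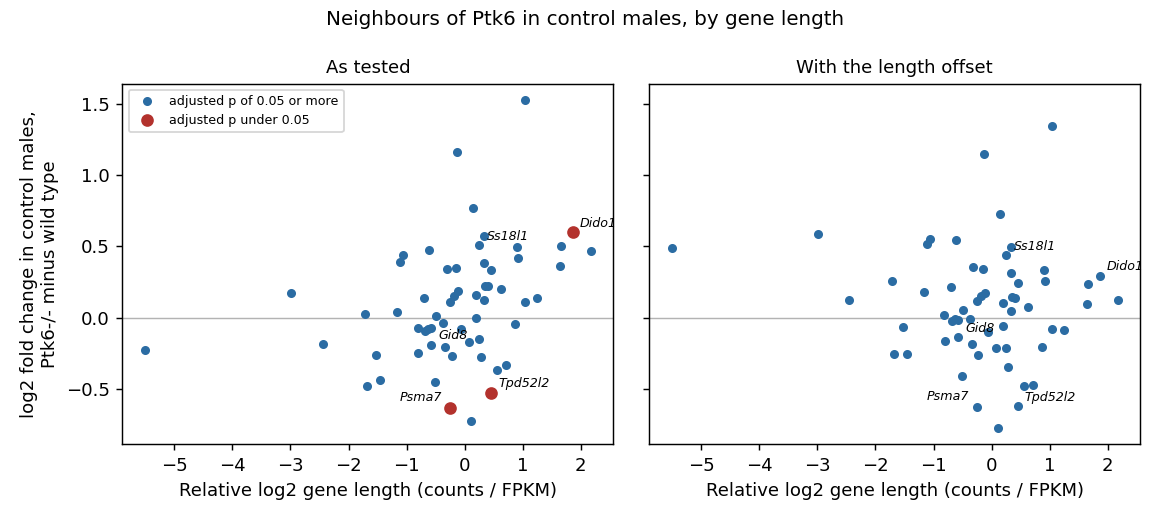
Log2 fold change in control males (*Ptk6*−/− minus wild type, 3 mice against 3) of each neighbour tested against its relative log2 gene length (counts over FPKM), as tested (left) and with an offset for each library's length trend (right). Red points passed (3 of 59 on the left, 0 on the right), and *Dido1*, among the longest, moves from 0.60 to 0.29.

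In control males the libraries of 22 of the 59 neighbours did not overlap between genotypes (13 higher and 9 lower in *Ptk6*−/−), against 31.4% of all genes. The counts were 6 of 61 in succinate-treated males (8.66% of all genes), 15 of 57 in control females (18.9%) and 6 of 60 in succinate-treated females (10.8%). No neighbour was without overlap in the same direction in all 4, as were 0.0138% of all genes. The 4 log2 fold changes had 1 sign in 14 of the 56 neighbours tested in all 4 (25%), against 23.7% of 17932 genes. Of these, *Mtg2*, *Arfgap1*, *Stmn3* and *Arfrp1* were lower in each, and 10 were higher, among them *Ss18l1*, *Dido1*, *Gmeb2*, *Dnajc5* and *Uckl1*.

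In the other groups, 0 of 61 neighbours passed in succinate-treated males (0% of all genes) and 0 of 60 in succinate-treated females (0%), by edgeR. At an unadjusted p under 0.05 there were 2 and 3 neighbours (2.72% and 4.52% of all genes), and DESeq2 called 0 in both. In control females 0 of 57 passed in edgeR (0.0158% of all genes), 6 were under 0.05 before adjustment (11.1% of all genes), and DESeq2 called *Ogfr* and the antisense transcript *Uckl1os* (2.05% of all genes). *Ogfr*, the opioid growth factor receptor at chr2:180231038-180237629 (plus strand), was at 94.8, 145 and 104 CPM in the female wild type controls and at 47.1, 43.6 and 39.3 CPM in the female *Ptk6*−/− controls. These libraries did not overlap, and the log2 fold change was -1.37 ± 0.25 (SE; adjusted p = 0.367, edgeR). In control males *Ogfr* was at 68.9 to 79.3 CPM in wild type and 43.7 to 60.1 CPM in *Ptk6*−/−, with a log2 fold change of -0.45 (adjusted p = 0.116, edgeR). DESeq2 called *Ogfr* there too, as it did 15.5% of all genes. In succinate-treated males it was at 54.2 to 152 CPM against 63.4 to 237 CPM, with overlap and a log2 fold change of 0.28. The 237 CPM was in replicate 1 of *Ptk6*−/−, the library with the fewest counts, and without it the log2 fold change was -0.66 (adjusted p = 0.822, edgeR).

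By role, the 3 neighbours of protein turnover, *Psma7*, the proteasomal ubiquitin receptor *Adrm1* and *Gid8*, all had log2 fold changes below 0 over all mice, with a median of -0.23, and 0 passed. Of 9 neighbours listed as membrane traffic and G protein signalling 6 were below 0 (median -0.23). *Ogfr* (-0.47) and *Lime1* (-0.50), which are neither, were among the 6. The lowest unadjusted p of the 9 was that of *Arfgap1*, which stimulates GTP hydrolysis on the Golgi GTPase ARF1. Its libraries were at 32.7 to 65.1 CPM in wild type and 29.0 to 43.3 CPM in *Ptk6*−/−, and its log2 fold change was -0.36 (95% interval -0.60 to -0.12, adjusted p = 0.283 by edgeR). Of 19 neighbours of transcription, chromatin and RNA, 12 were above 0 and 7 below (median 0.03), and *Taf4* (0.32) and *Polr3k* (-0.39) were left out of that list. The 8 genes listed as transporters, adhesion and matrix, of which *Ppdpf*, the uridine-cytidine kinase *Uckl1* and *Pcmtd2* are none of these, had a median of -0.20 and the 7 nerve and muscle genes a median of -0.04, and 19 neighbours in no group had a median of 0.13. None of these 65 passed over all mice.

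Beyond these groups, *Polr3k*, an RNA polymerase III subunit and the last neighbour on the chromosome, was at 9.38 to 21.5 CPM in wild type and 7.94 to 25.0 CPM in *Ptk6*−/−. Its log2 fold change was -0.39 (95% interval -0.71 to -0.07, adjusted p = 0.328 by edgeR). *Cdh26*, a cadherin, had 0 to 20 counts per library in wild type and 0 to 15 in *Ptk6*−/−. It was at 0 counts in 3 of the 12 wild type and 9 of the 12 *Ptk6*−/− libraries. *Uckl1os* had 0 to 25 counts in wild type and 7 to 71 in *Ptk6*−/−, and it overlaps *Uckl1* and *Zfp512b* on the opposite strand, so that its reads rest on the strand information of the libraries. In all, 15 neighbours overlapped another gene with enough counts, 12 of them on the opposite strand and 6 on the same strand.

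No neighbour passed a test of whether its genotype difference depended on sex or on succinate. For the difference of the genotype effect between males and females, 0 of 65 neighbours passed (0% of all genes), and 3 were under 0.05 before adjustment (4.58% of all genes). *Oprl1* came lowest, at an adjusted p of 0.863 (edgeR). For its difference between succinate and control, 0 of 65 passed (0% of all genes), and 4 were under 0.05 before adjustment (5.88% of all genes). *Zbtb46* came lowest, at an adjusted p of 0.845 (edgeR). DESeq2 called 0 neighbours in both. The intervals were wide, within a 2-fold difference for 25 and 24 of the 65.

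Succinate against control, as the mean over the 4 combinations of sex and genotype, gave 0 of 65 neighbours (1.03% of all genes), with 8 (12.3%) at an unadjusted p under 0.05, against 16.1% of all genes. The smallest adjusted p was 0.0767, for *Ppp1r3d*, a subunit that directs protein phosphatase 1 to glycogen, with a log2 fold change of 1.15 ± 0.31 (SE; edgeR). It was at 0.23 to 1.08 CPM in the 12 control libraries and at 0.55 to 4.83 CPM in the 12 succinate libraries, which overlapped. DESeq2 called *Ppp1r3d*, *Arfrp1*, a Golgi GTPase, and *Stmn3* (3.74% of all genes). Their log2 fold changes in edgeR were 0.37 for *Arfrp1* (adjusted p = 0.132) and 0.76 for *Stmn3* (adjusted p = 0.146).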

How the data were processed

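RNA from the distal jejunum of 24 mice was sequenced as stranded poly(A) libraries. Per the study's methods, reads were trimmed with Cutadapt, aligned with HISAT2 and assembled with StringTie, and the submitters' processing notes name the build GRCm39. The count values, as deposited by the authors, are reads per gene without normalization. The FPKM values, as deposited by the authors, were estimated with StringTie and ballgown. The program that counted reads was not given in the sources used here.

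The counts were tested in edgeR 4.0.16 (TMM, quasi-likelihood test; R 4.3.3), with DESeq2 1.42.0 and limma 3.58.1 as alternatives. All fits ran over every gene that reached 10 counts in 3 or more of the libraries compared, with Benjamini-Hochberg adjustment over all of them, and a gene passed at an adjusted p under 0.05. The fold of at least 2 that the study also used was counted separately. Differences over all mice came from 1 fit of 8 group means, and those within a sex and treatment from fits of 3 mice against 3. With 3 mice per group, each test set a difference against the spread between these mice, estimated for each gene with the help of all genes. Over all mice the 8 groups shared 1 spread per gene. CPM were computed after TMM. FPKM served for levels between genes and, with counts, for gene length.

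Neighbours named with values were those that passed in any comparison, all within 100 kb of *Ptk6* and the 3 of highest mean FPKM (Gm and Rik names only where they passed). Among these, 1 neighbour was tested and counted but is not reported here by name. *Stmn3*, *Arfgap1*, *Cdh26*, *Taf4*, *Ss18l1*, *Gid8*, *Polr3k*, *Uckl1os*, *Ppp1r3d*, *Arfrp1*, *Ythdf1*, *Oprl1* and *Zbtb46* were added after their values were seen. The neighbours, gene groups and marker lists were chosen with earlier results of these data known. All 10 marker lists were tested, and 0 genes of any passed between genotypes over all mice. The median log2 fold changes were -0.16 for enteric neurons, -0.46 for smooth muscle, -2.01 for cardiac muscle, -0.30 for tuft cells, -0.03 for goblet cells, -0.41 for Paneth cells, 0.04 for enterocytes, -0.12 for B cells, -0.21 for T cells and -0.12 for endothelium. The cardiac value includes replicate 2 of the female wild type succinate group, with a sum of 18155 CPM. The median cardiac sums were 47.3 CPM in wild type and 32.8 CPM in *Ptk6*−/−. Promoter sequences are those of RefSeq. The code was tested on simulated data.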

Additional observations from a re-analysis of the deposited data

Results flagged for a closer look

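In 2 neighbours every *Ptk6*−/− library lay on one side of every wild type library in control males and on the other side in control females, as did 0.327% of all 21694 genes. *Ppp1r3d* was at 0.23 to 0.57 CPM in wild type and 0.65 to 1.08 CPM in *Ptk6*−/− males, and at 0.81 to 0.97 CPM in wild type and 0.23 to 0.79 CPM in *Ptk6*−/− females. Its log2 fold changes were 1.16 and -0.70, a difference of 1.85. *Ythdf1*, a reader of N6-methyladenosine in RNA, was at 19.8 to 32.0 CPM in wild type and 32.6 to 35.9 CPM in *Ptk6*−/− males, and at 29.7 to 38.4 CPM in wild type and 22.9 to 28.1 CPM in *Ptk6*−/− females. Its log2 fold changes were 0.35 and -0.28, a difference of 0.63. The difference between the sexes in control mice alone was not tested. Over both treatments, the difference of the genotype effect between males and females was 0.93 for *Ppp1r3d* and 0.35 for *Ythdf1*, and neither passed (edgeR's quasi-likelihood test).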

How the results depend on the processing

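The count of neighbours that passed depended on the test. Over all mice it was 0 with edgeR, 1 with DESeq2 and 28 with voom and quality weights, which called 38.6% of all genes. It was 0 to 1 when single libraries were left out, while the count of all genes, 6 with every library, was 2 to 376. In control males it was 3 with edgeR, 9 with DESeq2 (15.5% of all genes), 10 with voom (21.2%) and 0 with the length offset (0.375%), with limma on log2(FPKM + 1) with (1.75%) and without a filter (0%) or log2(FPKM + 0.1) (1.2%), with the fit of all 24 libraries (0.00461%), and with a fold of at least 2 (0.739%). It was 2 without a filter on low counts (*Tpd52l2* lost; 2.74%) and 4 with at least 10 counts in every library (*Taf4* gained; 9.4%). Without single libraries it was 0 to 4 (4.82% of all genes where it was 4), and it was 0 without replicate 2 or 3 of either genotype, where 2 to 6 of all genes passed, against 813. In succinate-treated males voom called 6 (15.7% of all genes). In control females DESeq2 called 2 and voom 10 (20.7%). Single libraries gave 0 to 7 there, with 7 (*Dido1*, *Ogfr*, *Polr3k*, *Ppdpf*, *Rbbp8nl*, *Stmn3* and *Zfp512b*) and 2814 genes of all (15%) without replicate 3 of *Ptk6*−/−. For succinate DESeq2 called 3, voom 14 (21.9%), and leaving out single libraries 0 to 5, with 5 (5.47% of all genes) without replicate 3 of the female wild type succinate group. The same 3 neighbours passed in control males when the 3 libraries that stood apart were left out (4.78% of all genes). Of these libraries only replicate 1 of wild type is in this comparison, so the fit is the one without that library alone.

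Log2 CPM less their group mean were correlated between wild type and *Ptk6*−/− libraries of the same sex, treatment and replicate number. Within a group of 3 such differences cancel out for each gene, which constrains these correlations. They were -0.294 to 0.234, and the replicate number was not taken to pair the mice. With it as a block, 0 neighbours passed in control males, also with the length offset, against 3 without it (0.026% of all genes with the block in both fits), at log2 fold changes of -0.64 for *Psma7*, -0.53 for *Tpd52l2* and 0.60 for *Dido1* without the offset, and 5 genes of all passed over all mice, against 6.

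Among the named neighbours, *Gid8* in control males changed sign with limma on FPKM. It went to 0.22 on log2(FPKM + 1), with and without a filter, and to 0.25 on log2(FPKM + 0.1). The filtered fits had medians of 0.25 and 0.40 over all genes. In succinate-treated males, *Psma7* went from 0.21 to -0.57 and *Ogfr* from 0.28 to -0.66 without replicate 1 of *Ptk6*−/−. Not every named neighbour's sign is given for every group. Of neighbours under 1 FPKM, 11 of 27 intervals stayed within 2-fold, against 35 of 38 above; depth itself was not varied. The causes were not tested.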

Other observations

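Beyond the neighbours, 6 of all 21694 genes passed between genotypes over all mice (edgeR's quasi-likelihood test). Without single libraries 2 to 376 passed, with the most without replicate 1 of the male wild type succinate group. *Ptk6* was the only one of the 6 on chromosome 2. Higher in *Ptk6*−/− were *B3galt5*, a galactosyltransferase on chromosome 16 (log2 fold change 2.34, adjusted p = 0.00352), *Tat*, the tyrosine aminotransferase on chromosome 8 (2.37, adjusted p = 0.0187), the ligands *Nrg1* (0.92, adjusted p = 0.0438) and *Efnb2* (0.71, adjusted p = 0.0465), also on chromosome 8, and ENSMUSG00000120996 on chromosome 3 (1.11, adjusted p = 0.0438). These genes were named after their values were seen.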
